A study of Mus musculus with 11 samples.

Results

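The lamellar body is the secretory organelle of the alveolar type 2 cell that stores pulmonary surfactant. The 6 genes described here were grouped for roles in it, in surfactant lipid handling or in phosphate transport: Abca3, Lamp3, Lpcat1, Npc2, Atp8a1 and Slc34a2. They were taken by gene symbol, 6 of the 24421 rows of the deposited count table, and each symbol matched 1 row. Counts came from poly(A) RNA of epithelial cells of fetal mouse lung at E17.5, held on magnetic microbeads by the surface protein EpCAM. The 6 Control libraries carry the genotype label Control, and the 5 knockout libraries the label PRDM3/16KO. In the knockout, floxed alleles of Prdm16 and Prdm3 (listed as Mecom) were recombined by a Cre allele at Shh, a gene active in lung epithelium from early development. The stated cross used Prdm3fl/fl Prdm16fl/wt ShhCre+ sires and Prdm3fl/fl Prdm16fl/fl dams, so every embryo of that cross carries 2 floxed Prdm3 alleles. The labels do not say whether Control embryos came from it or carried Cre. They name no animals, litters or sequencing batches, and the p-values therefore rest on the spread of libraries alone, which may be technical in part.

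Lamellar bodies belong to the lysosome-related organelles. Type 2 cells make dipalmitoyl phosphatidylcholine, pump it and other lipids into the organelle, add the hydrophobic surfactant proteins and release the content into the air space, where it lowers surface tension. The program is switched on late in gestation, under the lineage transcription factor NKX2-1, and its failure causes respiratory distress at birth.

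Library totals ran from 6065906 to 7869787 counts. Correlations of log2 CPM (counts divided by TMM-scaled library size) ran from 0.955 to 0.990 for libraries of 1 group and from 0.905 to 0.931 across groups. Among the targeted genes, Prdm16 was at 173 to 227 CPM in Control and 147 to 181 CPM in the knockout (-0.28 on the log2 scale, adjusted p = 0.00905 by edgeR), and Mecom at 206 to 233 and 321 to 354 CPM (0.64; edgeR, adjusted p = 3.26e-07). Reads were counted over each gene and which exons were deleted is not stated, which limits what these levels say about recombination. Shh, the locus of the Cre allele, was at 265 to 368 CPM in Control and 230 to 269 CPM in the knockout. Its log2 fold change was -0.36 (edgeR, adjusted p = 0.00212), with overlapping ranges. Shh was not called with the mean level of mesenchymal markers as a covariate (edgeR, adjusted p = 0.0515). That covariate was itself lower in every Control library than in every knockout library, so it can hardly be told apart from genotype. The call of Prdm16 was lost when libraries were scaled by size alone (adjusted p = 0.0576 by edgeR), with the mean level of mesenchymal markers as a covariate, or among libraries with high Y-linked transcripts. Nkx2-1 averaged 1335 ± 109 CPM (SD) over 6 Controls and 1098 ± 91.0 CPM over 5 knockouts, with overlapping ranges (log2 fold change -0.28; edgeR, adjusted p = 0.010); its call was lost under the same 3 settings.

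All 6 genes fell in the knockout, and all 6 passed the filter on low counts. Of the 13916 genes tested, 42.9% were called in either direction and 21.8% lower. A fall of at least 2-fold was called for 5 of the 6, all but Atp8a1, and for 4.53% of genes tested. Npc2 passed 2-fold narrowly, and the count was 4 with scaling by library size (Npc2 at -0.96), with a Y-linked (-0.98) or mesenchymal (-0.99) covariate, among libraries with low Y-linked transcripts (low-Y; -0.90) and without Control library 4 (-0.996). In each of the 6 the lowest Control library stood above the highest knockout library, which held for 14.2% of genes tested. The fall was graded: Lamp3 was left at 14.5% of its Control level, Slc34a2 at 21.8%, Lpcat1 at 31.1%, Abca3 at 37.9%, Npc2 at 47.4% and Atp8a1 at 61.3%. Their median log2 fold change was -1.54, against 0.0023 over all genes. In bulk samples, fewer cells of a type and less RNA per cell cannot be told apart.

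Lamp3 encodes a lysosome-associated membrane glycoprotein of the lamellar body's limiting membrane, also described in human mature dendritic cells. Its mm10 position is chromosome 16, 19653378 to 19706375, minus strand. Control libraries gave 1062 to 1983 CPM with a median of 1680. Knockout libraries 1 to 5 gave 212, 187, 274, 267 and 222 CPM. Every knockout library was thus far under every Control library. Means were 1604 ± 337 CPM (SD, n = 6) and 233 ± 37.1 CPM (SD, n = 5), which gave -2.79 as log2 fold change (SE 0.16; edgeR quasi-likelihood test, adjusted p = 7.06e-09). Of the 13916 genes, 49 had a lower log2 fold change.

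Abca3 encodes the ATP-binding cassette transporter that loads phospholipid into the lamellar body, and its loss is lethal in newborns. It lies on chromosome 17 from 24351950 to 24410201 (plus strand). Control libraries gave 624.7 to 886 CPM with a median of 749, and knockout libraries 1 to 5 gave 270, 259, 321, 327 and 273 CPM. Means were 766 ± 104 CPM (SD, n = 6) and 290.0 ± 31.5 CPM (SD, n = 5), and the log2 fold change was -1.40 (SE 0.10; edgeR, adjusted p = 4.03e-08). The groups were well apart, and the 2 highest knockout libraries, 3 and 4, were also the 2 highest for Lamp3. A noncoding gene on the opposite strand, D330041H03Rik, overlaps Abca3; its counts summed to 160 in Control and 113 in the knockout, against 30466 and 11267 for Abca3.

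Atp8a1 encodes a P4-ATPase, a flippase that moves aminophospholipids to the cytosolic face of membranes. It lies on chromosome 5 from 67618140 to 67847434 (minus strand). Control libraries gave 591 to 868 CPM with a median of 818, and knockout libraries 1 to 5 gave 485, 496, 467, 482 and 448 CPM. This was the narrowest gap of the 6, with 95.2 CPM between the lowest Control and the highest knockout library. Means were 777 ± 108 CPM (SD, n = 6) and 476 ± 18.4 CPM (SD, n = 5), and the log2 fold change was -0.71 (SE 0.094; edgeR, adjusted p = 2.00e-05). Shisa3, which overlaps it on the opposite strand, had 23 and 32 counts in all.

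Lpcat1 encodes the acyltransferase that remodels lysophosphatidylcholine into the disaturated surfactant lipid. It lies on chromosome 13 from 73467197 to 73516422 (plus strand). Control libraries gave 252 to 368 CPM with a median of 331, and knockout libraries 1 to 5 gave 101, 86.8, 119, 109 and 88.6 CPM. It was the least abundant of the 6 by CPM, and its groups did not overlap. Means were 325 ± 44.4 CPM (SD, n = 6) and 101 ± 13.9 CPM (SD, n = 5), and the log2 fold change was -1.68 (SE 0.11; edgeR, adjusted p = 1.43e-08).

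Npc2 encodes a small sterol-binding protein of the lysosome lumen that hands cholesterol to the membrane protein NPC1. It lies on chromosome 12 from 84754562 to 84773152 (minus strand). Control libraries gave 1977 to 3310 CPM with a median of 2591, and knockout libraries 1 to 5 gave 1174, 1200, 1235, 1325 and 1209 CPM. Knockout values lay close together, with a coefficient of variation of 4.75% against 17.3% in Control, where counting error alone gives 1.02% and 0.765%. Means were 2593 ± 449 CPM (SD, n = 6) and 1229 ± 58.3 CPM (SD, n = 5), and the log2 fold change was -1.08 (SE 0.11; edgeR, adjusted p = 1.36e-06).

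Slc34a2 encodes the apical sodium-phosphate cotransporter of type 2 cells, which takes up phosphate set free as surfactant phospholipid is broken down; its loss in people leads to alveolar phosphate stones. It lies on chromosome 5 from 53038081 to 53071664 (plus strand). By CPM it ranked 9 among all genes tested in Control. Control libraries gave 1795 to 3714 CPM with a median of 2933, and knockout libraries 1 to 5 gave 527, 451, 734, 783 and 567 CPM. It was the most variable of the 6 in both groups, at 23.9% and 23.0%, and the groups still did not overlap. Means were 2806 ± 672 CPM (SD, n = 6) and 612 ± 141 CPM (SD, n = 5), and the log2 fold change was -2.20 (SE 0.19; edgeR, adjusted p = 6.25e-07).

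**Figure D1:**
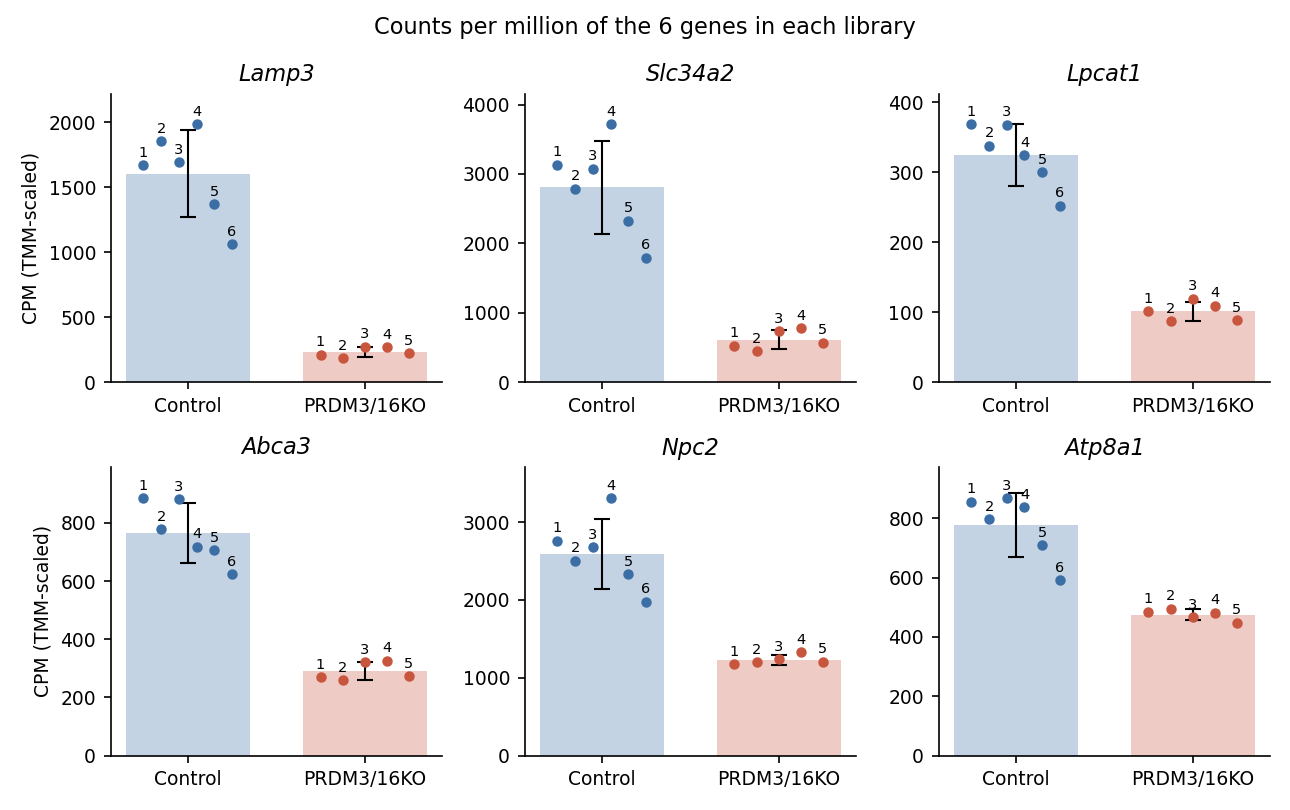
CPM of each gene (vertical axis, from 0) in 6 Control and 5 PRDM3/16KO libraries; points are libraries with their replicate number, bars are means and whiskers 1 SD. For each gene every knockout point lies under every Control point, and Control libraries 5 and 6 are the lowest Controls.

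Libraries kept much the same order across the genes. Control library 6 was the lowest and Control library 5 the second lowest Control for 6 of 6 genes, and knockout libraries 3 and 4 were the highest knockouts for 5 of 6, Atp8a1 being the exception. The summed level of 15 other type 2 cell markers, such as Sftpc, Sftpb and Napsa, ran in the same order at these ends: 8601 and 10497 CPM in Control libraries 6 and 5 against 12486 to 15742 CPM in the other Controls. In knockout libraries 3 and 4 it was 5184 and 4870 CPM, against 3541 to 3860 CPM in the other knockouts. Summed proliferation markers stood at 806 and 574 CPM in Control libraries 6 and 5 and at 195 to 366 CPM in the other Controls. Without these 2 libraries the log2 fold changes were -2.95 for Lamp3, -2.38 for Slc34a2, -1.79 for Lpcat1, -1.50 for Abca3, -1.20 for Npc2 and -0.82 for Atp8a1.

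Y-linked transcripts divided the libraries into 6 with low levels (2 Control, 4 knockout) and 5 with high levels (4 Control, 1 knockout). Among low libraries the log2 fold changes were -2.71 for Lamp3, -2.01 for Slc34a2, -1.58 for Lpcat1, -1.33 for Abca3, -0.90 for Npc2 and -0.56 for Atp8a1. Among high libraries they were -2.66, -1.98, -1.64, -1.30, -1.07 and -0.77 in the same order, with 1 knockout library, so these are given as values. All 6 were called among low libraries (edgeR, adjusted p at most 0.00767).

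Promoter windows of the genes at the ends of the gradient are shown because NKX2-1 and FOXA factors are the known activators of type 2 cell genes. All 6 genes matched a RefSeq promoter entry (GRCm38.p6). The search covered the 250 bases before the RefSeq start on both strands, for CTCAAG and CACTTG, forms of the NKX2-1 core, and TGTTTAC, a FOXA core; these do not overlap one another. Printed 5′ to 3′ on the gene's strand, without bases in GENCODE exons, the windows have motif letters in capitals. Lamp3 is at chr16:19706376-19706615 (minus strand), Slc34a2 at chr5:53049103-53049351 (plus strand; the RefSeq start lies inside the longer GENCODE gene) and Atp8a1 at chr5:67847435-67847681 (minus strand).
Lamp3: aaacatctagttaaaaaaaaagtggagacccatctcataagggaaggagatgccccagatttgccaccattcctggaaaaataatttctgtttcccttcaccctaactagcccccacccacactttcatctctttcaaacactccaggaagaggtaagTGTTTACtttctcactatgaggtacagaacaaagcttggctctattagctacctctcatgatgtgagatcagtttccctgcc
Slc34a2: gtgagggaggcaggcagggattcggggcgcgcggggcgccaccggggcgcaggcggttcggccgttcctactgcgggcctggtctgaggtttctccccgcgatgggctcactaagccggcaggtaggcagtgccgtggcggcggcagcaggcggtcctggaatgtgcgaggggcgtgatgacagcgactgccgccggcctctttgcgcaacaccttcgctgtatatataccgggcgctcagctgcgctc
Atp8a1: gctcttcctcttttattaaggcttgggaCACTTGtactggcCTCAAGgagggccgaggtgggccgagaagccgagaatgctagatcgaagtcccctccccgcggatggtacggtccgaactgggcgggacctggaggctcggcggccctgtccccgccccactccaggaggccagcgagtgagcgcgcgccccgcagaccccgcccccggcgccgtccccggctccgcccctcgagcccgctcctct
Lamp3, with the largest fall, held TGTTTAC at 92 to 86 bases before the start, and Slc34a2 held none of the 3 motifs. Atp8a1, with the smallest fall, held CACTTG at 222 to 217 bases and CTCAAG at 209 to 204 bases. Npc2 held CACTTG at 28 to 23 bases, within the 40 bases of its window that lie in a GENCODE exon. Abca3 and Lpcat1 held none. Over all 32851 promoter windows, 13.3% held CTCAAG, 11.6% CACTTG and 3.17% TGTTTAC. The Lamp3 window had 42.4% G and C, against 60.8% to 70.4% in the other 5 and a median of 52.4% over all windows. A match to letters is a description and no evidence of binding.

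Ratios between genes within a library, which do not depend on library scaling, were used to ask whether the gradient was larger than the spread. Each of 15 pairs was tested by an exact two-sided permutation test over the 11 libraries, whose smallest possible p is 0.00433, with Benjamini-Hochberg adjustment over the pairs. All 15 ratios differed between the groups, 13 of them at adjusted p = 0.00499 by the exact test. Lamp3 fell further than Slc34a2 by -0.58 on the log2 scale, with a log2 ratio of -0.80 ± 0.12 in Control (SD, n = 6) and -1.38 ± 0.11 in the knockout (SD, n = 5). Against Atp8a1 it fell further by -2.08, from 1.03 ± 0.16 to -1.05 ± 0.26, the widest of the 15 differences. In Control, Lamp3 thus gave more counts than Atp8a1 in every library, and in the knockout fewer.

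Neighbours in the gradient were closer. Lpcat1 over Abca3 differed by -0.29 (from -1.24 ± 0.056 to -1.52 ± 0.096) and Npc2 over Atp8a1 by -0.37 (from 1.73 ± 0.13 to 1.37 ± 0.088), both with ranges that did not overlap. Ranges overlapped for Slc34a2 over Lpcat1, which differed by -0.51 (exact permutation test, adjusted p = 0.00928), and for Abca3 over Npc2, at -0.34 (exact permutation test, adjusted p = 0.0216). Abca3 over Npc2 was not called without Control libraries 5 and 6, at -0.31 (exact permutation test, adjusted p = 0.0794).

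Sftpc, the surfactant protein gene most used to mark type 2 cells, went from 1030 ± 163 CPM (SD, n = 6) to 415 ± 55.7 CPM (SD, n = 5), or -1.31 on the log2 scale (adjusted p = 3.50e-07 by edgeR). Relative to Sftpc in the same library, 3 of the 6 genes were lower in the knockout and 2 higher. Lamp3 over Sftpc differed by -1.47 (from 0.63 ± 0.20 to -0.84 ± 0.11), Slc34a2 by -0.88 and Lpcat1 by -0.38. Atp8a1 over Sftpc differed by 0.61 (from -0.40 ± 0.13 to 0.21 ± 0.22) and Npc2 by 0.25. Exact permutation tests over 12 ratios gave adjusted p = 0.00577 for Lamp3, Slc34a2 and Atp8a1 and 0.00945 for Lpcat1 and Npc2. The ranges of the groups overlapped for Lpcat1 over Sftpc and for Npc2 over Sftpc. Abca3 over Sftpc differed by -0.091 (from -0.42 ± 0.21 to -0.51 ± 0.077; exact permutation test, adjusted p = 0.346). Control library 4 decided this result. Without it the Control ratio was -0.34 ± 0.077 (SD, n = 5), and the difference of -0.17 was called (exact permutation test, adjusted p = 0.0159), although the ranges still overlapped.

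**Figure D2:**
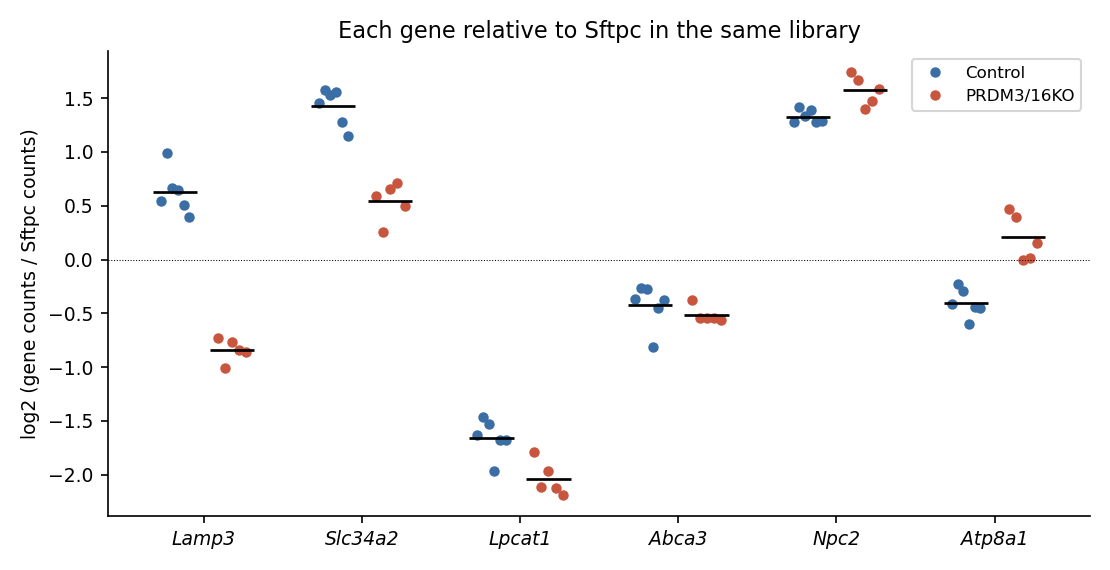
Log2 ratio of each gene's counts to Sftpc counts in the same library (vertical axis), for 6 Control and 5 PRDM3/16KO libraries; points are libraries and lines are group means. Lamp3 moves from 0.63 to -0.84, Abca3 stays between -0.82 and -0.26, and Atp8a1 moves up from -0.40 to 0.21.

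Relative to Epcam, which encodes the protein used for selection (252 ± 25.3 and 261 ± 10.8 CPM), all 6 were lower, from -2.83 for Lamp3 to -0.75 for Atp8a1 (exact permutation tests, adjusted p = 0.00577 for each).

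Levels can be compared between genes only per length, here as CPM per kb of annotated exon. In Control the genes formed a high and a low tier. Slc34a2 (560 ± 134 CPM per kb), Lamp3 (478 ± 100) and Npc2 (477 ± 82.6) made up the high tier, with overlapping ranges (SD, n = 6). Abca3 (81.7 ± 11.1 CPM per kb), Lpcat1 (70.2 ± 9.58) and Atp8a1 (54.4 ± 7.55) made up the low tier. Lpcat1 overlapped both of its neighbours, and Abca3 did not overlap Atp8a1 on this length. In the knockout Npc2 led at 226 ± 10.7 CPM per kb (SD, n = 5), above Slc34a2 (122 ± 28.1) and Lamp3 (69.3 ± 11.1), whose ranges did not meet. Atp8a1 (33.3 ± 1.29) and Abca3 (30.9 ± 3.36) overlapped there on this length, and Lpcat1 was last at 21.8 ± 2.99 CPM per kb. With the longest annotated transcript as the length, Npc2 led in Control too, at 786 CPM per kb against 672 for Slc34a2, and Atp8a1 (95.0) and Lpcat1 (88.5) changed places. The Control ranges of Abca3 (96.5 to 137) and Atp8a1 (72.3 to 106) then overlapped.

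**Figure D3:**
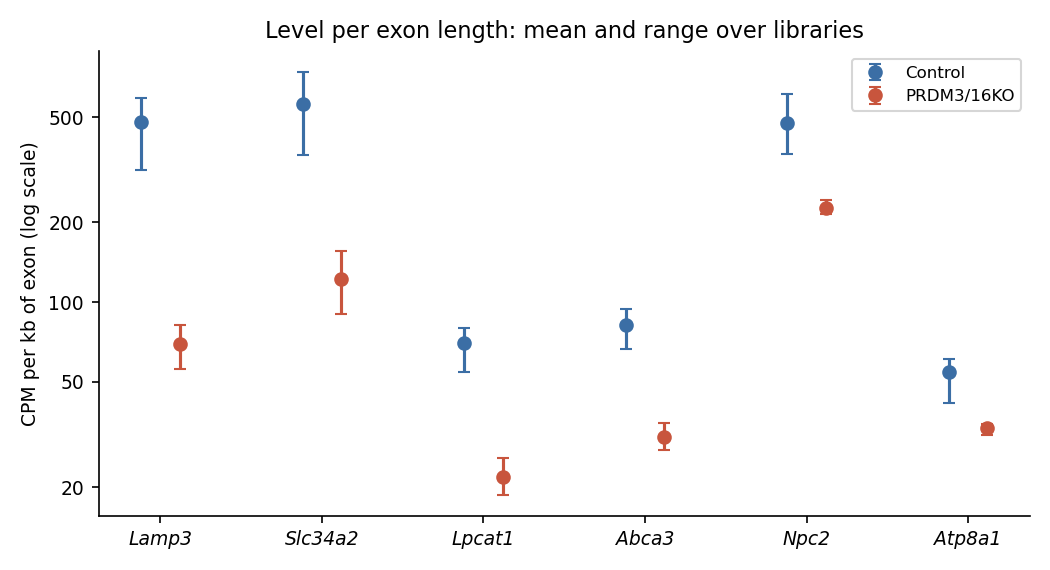
CPM per kb of exon (vertical axis, log scale) for each gene in Control and PRDM3/16KO; points are means and whiskers the range over 6 or 5 libraries. Lamp3 drops from 478 to 69.3, out of the high tier, while Npc2 becomes the highest of the 6 at 226.

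For each gene the 3 genes with the most similar profile were found by the root mean square difference in log2 CPM, centred on the Control mean, over the 11 libraries. For Abca3 they were Lrrk2 (0.10), Scarb2 (0.10) and Pld6 (0.12); Scarb2 encodes the lysosomal membrane protein LIMP-2. For Lpcat1 they were Fasn (0.098), the fatty acid synthase gene, Adgrf5 (0.11) and Ppp1r14c (0.11). For Npc2 they were Mid1ip1 (0.053), Ttc38 (0.073) and Prkab1 (0.080), and for Atp8a1 they were Cldn18 (0.057), Tgfbrap1 (0.058) and Pcyt1a (0.059). Lamp3 and Slc34a2 had less close matches: Pm20d1 (0.19), Rragd (0.21) and Cpn1 (0.21) for Lamp3, and Hkdc1 (0.14), Dpyd (0.21) and Napsa (0.21) for Slc34a2. None of the 6 was among another's 3 nearest genes, and the smallest difference within the 6 was 0.21, between Abca3 and Lpcat1. Centring on Control alone leaves the genotype effect in this measure, so genes with unlike log2 fold changes stand apart by it. Abca3 (-1.40) and Lamp3 (-2.79), for example, differed by 0.94. Distances within the 6 therefore largely restate the gradient.

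Further genes of the same pathway were read from 9 lists of 115 genes, 98 of which were tested. Of these, 36 fell (36.7%) and 20 rose (20.4%), where 21.8% and 21.1% of all genes were called lower and higher. The median log2 fold change was -0.11, so the lists as a whole lay much nearer to all genes (0.0023) than the 6 did. With library-size scaling alone, which shifts the median of all genes to 0.11, 26 fell and 26 rose (26.5% each), where 15.1% and 28.7% of all genes were called lower and higher.

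**Figure D4:**
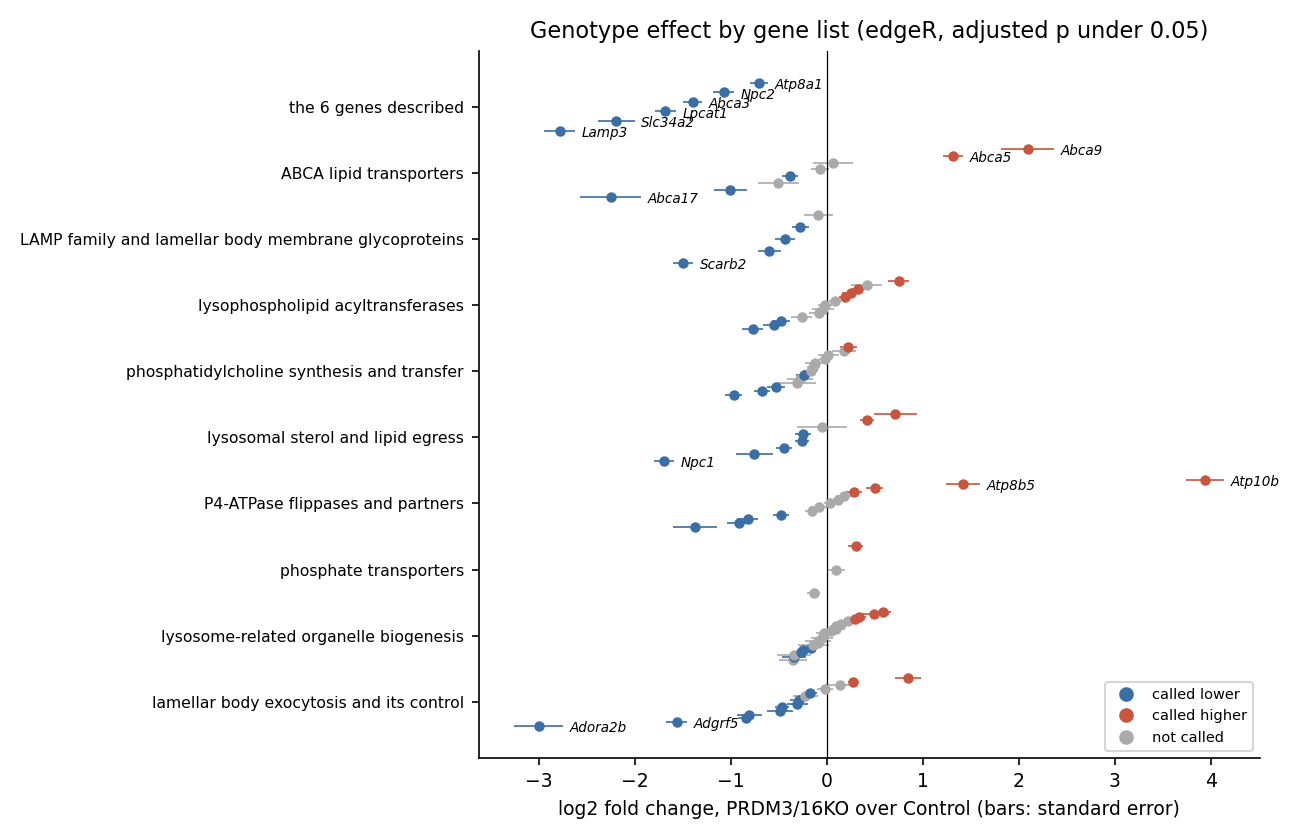
Log2 fold change, PRDM3/16KO over Control (horizontal axis), of each tested gene in the 6-gene group and in 9 pathway lists; whiskers are standard errors and colour gives the edgeR call. All 6 genes described lie left of 0, while most lists spread to both sides, from Adora2b at -3.01 to Atp10b at 3.94.

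Among 8 other tested ABCA lipid transporters, 3 fell and 2 rose. Abca1, the cellular cholesterol exporter, fell from 149 ± 40.0 to 74.2 ± 5.82 CPM (-1.01 as log2 fold change; edgeR, adjusted p = 4.20e-04), but was not called among the low-Y libraries (-0.70; edgeR, adjusted p = 0.0592). Abca5 rose from 24.97 ± 4.26 to 61.9 ± 4.26 CPM (1.32), and Abca9 rose from 2.06 ± 0.93 to 8.59 ± 2.63 CPM (2.09). Abca17 lies 881 bases from Abca3 on the other strand; it fell from 4.22 ± 1.46 to 0.871 ± 0.25 CPM (-2.25), on 165 and 34 counts in all.

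Of 5 tested lysosomal membrane glycoproteins, 4 fell. Scarb2 fell from 132 ± 19.99 to 46.8 ± 3.77 CPM (-1.50; edgeR, adjusted p = 2.55e-08), close to Abca3 in size. The broadly expressed LAMP genes moved less: Lamp1 by -0.44 and Lamp2 by -0.28, with overlapping ranges, where Lamp3 moved by -2.79. The tetraspanin gene Cd63 fell by 0.60 on the log2 scale. Cd63, Lamp1 and Lamp2 were not called with the mesenchymal covariate. Among low-Y libraries Lamp1 (-0.26) and Lamp2 (-0.22) were not called (edgeR, adjusted p = 0.130 and 0.261). Lamp2 was also not called without Control library 2 (-0.24) or without knockout library 1 (-0.26), 2 (-0.25) or 5 (-0.26). Nor was Lamp2 called with scaling by library size (-0.16) or with a Y-linked covariate (-0.24).

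Acyltransferases other than Lpcat1 moved both ways, 3 lower and 4 higher among 13. Lpcat3, which places polyunsaturated chains on phosphatidylcholine, fell from 36.5 ± 5.83 to 21.3 ± 2.09 CPM (-0.78; edgeR, adjusted p = 4.41e-05), and Agpat3 fell (-0.48). Mboat1 rose from 23.9 ± 4.35 to 40.1 ± 3.69 CPM (0.75; edgeR, adjusted p = 6.59e-05). In phosphatidylcholine synthesis and transfer 4 of 13 fell and 1 rose. Pcyt1a, which encodes the rate-limiting enzyme of that route, fell from 444 ± 52.7 to 278 ± 8.25 CPM (-0.68; edgeR, adjusted p = 8.69e-06). The phosphotransferase gene Cept1 fell from 68.9 ± 9.31 to 35.0 ± 1.23 CPM (-0.97), and the choline transporter-like gene Slc44a3 fell (-0.53). Agpat3 and Slc44a3 were not called with the mesenchymal covariate (edgeR, adjusted p = 0.0563 and 0.0538).

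Sterol and lipid egress genes fell in 5 of 8 cases and rose in 2. Npc1, the membrane partner of Npc2, fell from 216 ± 33.3 to 66.4 ± 6.17 CPM (-1.70; edgeR, adjusted p = 1.06e-08), a larger fold than Npc2 itself, although the difference between these 2 was not tested. Osbpl1a fell (-0.45), as did Lipa, the lysosomal acid lipase gene (-0.76), whose ranges overlapped. Lipa was not called with the mesenchymal covariate (edgeR, adjusted p = 0.147) or among low-Y libraries, where it was -0.44 (edgeR, adjusted p = 0.172). Psap, which encodes the saposin precursor, rose from 232 ± 22.6 to 309 ± 15.6 CPM (0.42; edgeR, adjusted p = 2.38e-04).

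Flippases divided evenly, 4 lower and 4 higher among 13. Tmem30a, the subunit that P4-ATPases such as Atp8a1 need to leave the endoplasmic reticulum, fell from 469 ± 80.6 to 264 ± 11.1 CPM (-0.83; edgeR, adjusted p = 1.75e-05). Atp11a fell from 1066 ± 199 to 565 ± 47.0 CPM (-0.92). Atp10b rose from 1.3 ± 0.58 to 19.9 ± 1.5 CPM (3.94; edgeR, adjusted p = 7.82e-10) and Atp8b5 from 2.53 ± 0.69 to 6.77 ± 0.64 CPM (1.42), while Atp8b2 was at 58.5 and 63.3 CPM (0.11; edgeR, adjusted p = 0.253). Of 3 other phosphate transporters 1 rose and 2 were not called. Slc20a2, a housekeeping sodium-phosphate transporter, rose from 39.9 ± 4.26 to 49.1 ± 3.04 CPM (0.30; edgeR, adjusted p = 0.00729; ranges overlapped). It was not called with the mesenchymal covariate (edgeR, adjusted p = 0.192) or among low-Y libraries (edgeR, adjusted p = 0.128). Slc20a1 was at 49.9 and 53.0 CPM (0.091; edgeR, adjusted p = 0.470).

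Genes for the biogenesis of lysosome-related organelles were called at about the share of all genes, 4 lower and 4 higher among 21. Rab38, a small GTPase of such organelles, rose from 42.1 ± 4.93 to 63.3 ± 4.11 CPM (0.59; edgeR, adjusted p = 3.33e-05), and the BLOC-1 subunit gene Bloc1s6 rose (0.33). The AP-3 adaptor genes Ap3d1 (-0.25) and Ap3m1 (-0.27) fell slightly. Bloc1s6, Ap3d1 and Ap3m1 were not called with the mesenchymal covariate or among low-Y libraries (edgeR, adjusted p from 0.0671 to 0.384), and Ap3m1 was also not called when libraries were scaled by size alone. In lamellar body exocytosis and its control 9 of 14 fell and 2 rose. Adgrf5, a receptor that limits the surfactant pool, fell from 751 ± 109 to 254 ± 27.2 CPM (-1.56; edgeR, adjusted p = 2.47e-08). The adenosine receptor gene Adora2b fell from 95.9 ± 29.7 to 11.9 ± 3.18 CPM (-3.01; edgeR, adjusted p = 6.66e-07). P2ry2, the ATP receptor that triggers secretion, fell (-0.84), as did Rab3d (-0.47).

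Other cell types in the selection changed as well, and their part in these results was not tested. The 15 other type 2 markers summed to 8601 to 15742 CPM in Control and 3541 to 5184 CPM in the knockout, and 14 of 15 fell, with a median of -1.53. The 10 type 1 markers were at 4263 to 6814 and 5894 to 7222 CPM, with 2 lower and 2 higher. Mesenchymal markers rose in 5 of 8 tested cases (494 to 848 and 767 to 1402 CPM, summed over 9), mesothelial markers in 6 of 6 (155 to 296 and 449 to 566 CPM), and neuroendocrine markers in 5 of 5 tested (20.8 to 43.3 and 516 to 640 CPM, summed over 6). With mean mesenchymal marker level as a covariate, the log2 fold change was -2.68 for Lamp3, -2.18 for Slc34a2, -1.73 for Lpcat1, -1.41 for Abca3, -0.99 for Npc2 and -0.59 for Atp8a1. All 6 remained called (edgeR, adjusted p at most 0.00857). The covariate ran from 4.41 to 5.29 mean log2 CPM in Control and from 5.33 to 6.23 in the knockout, without overlap. This fit can therefore hardly tell mesenchymal level from genotype, and a call lost under it cannot be assigned to either. Dendritic cells, a possible other source of Lamp3, were read from their markers. Flt3 summed to 4 counts in Control and 3 in the knockout, and Ccr7 had 15 and 86, where Lamp3 had 63351 and 9041. The 10 immune markers summed to 11.6 to 55.8 CPM in Control and 31.0 to 117 CPM in the knockout, and none was at 0 in every library of a group; 3 of the 6 tested rose.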

How the data were processed

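The authors deposited whole-number counts per gene symbol for 6 Control and 5 knockout libraries, per the file headers. Among tools, the submitters' processing notes list HTSeq 2.0, Bowtie2 2.4.2, Picard 2.18.22, SAMtools 1.10.0, Trim Galore 0.4.2, DESeq2 and FastQC, and the build mm10, without roles. The strand setting is not given in the sources used here, nor is the annotation. In 27 rows a spreadsheet had turned the symbol into a date; they stayed in the totals. Coordinates and exon lengths are from GENCODE M21 (mm10, counted from 1), and promoter sequences from RefSeq.

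Here, genes were filtered with filterByExpr (13916 left), scaled by TMM and tested by a robust two-sided quasi-likelihood F-test (edgeR 4.0.16, R 4.3.3), Benjamini-Hochberg over all genes, threshold 0.05. Log2 fold changes set the knockout over Control, and their SE is the coefficient over the square root of F. CPM is given as mean ± SD. Log2 ratios used counts plus 0.5. Only the edgeR fit was tested on simulated counts, with few genes changed and as many higher as lower. That setting differs from these data, where 42.9% of genes tested were called.

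The genes and lists were chosen with earlier results of these data known. Text names the 6 genes, the targeted and reference genes, up to 4 called genes and up to 2 abundant uncalled genes of each list (some left out), and 3 profile neighbours of each gene (mean at least 5 CPM, predicted genes left out); immune markers are named for their levels. Alternatives were DESeq2 1.42.0 and its size factors, limma 3.58.1 voom, other scalings and filters, a replicate block, covariates and left-out libraries. Fits to low-Y and high-Y libraries, divided at 3 log2 CPM, were added after seeing the data.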

Additional observations from a re-analysis of the deposited data

Results flagged for a closer look

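Among 66 groups of libraries checked for a value far from the rest (each gene's CPM, and each ratio, in 6 Control or 5 knockout libraries), 8 held such a value, all of them log2 ratios and none a CPM. Chance flags about 1 in 20 groups, and the ratios share genes and libraries. Control library 4 stood apart in 6 ratios: Slc34a2 over Abca3 (2.37, next 1.84), Lpcat1 over Npc2 (-3.35, next -2.97), Lpcat1 over Atp8a1 (-1.37, next -1.24), Abca3 over Npc2 (-2.20, next -1.72), Npc2 over Atp8a1 (1.98, next 1.74) and Abca3 over Sftpc (-0.82, next -0.45). That library was the highest for Lamp3, Slc34a2 and Npc2. Knockout library 1 stood apart for Abca3 over Sftpc (-0.38, next -0.54), and knockout library 2 for Npc2 over Epcam (2.14, next 2.24).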

How the results depend on the processing

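For the counts of calls, the 6 genes, the ratios and the levels per length, 708 values were recomputed. Of these, 683 kept their direction and their side of the threshold, or stayed within the allowed range, and 0 reversed. Values of the other named genes are not in this count. Among them 2 reversed in sign, both for Epcam, which was not called. All 6 genes stayed called lower under all 27 alternatives, those added later included, 1 of which (high-Y) has a single knockout library and is no check of stability; their log2 fold changes ran from -2.95 to -2.66 for Lamp3, -2.38 to -1.98 for Slc34a2, -1.79 to -1.57 for Lpcat1, -1.50 to -1.29 for Abca3, -1.20 to -0.90 for Npc2 and -0.82 to -0.56 for Atp8a1.

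Counts of calls changed by over 1.5 times in these settings, from 5973 genes (2936 higher, 3037 lower) and 56 list genes (20 higher, 36 lower). With the mesenchymal covariate (groups not overlapping) 3272 genes (1639 higher, 1633 lower) and 29 list genes (11 higher, 18 lower) were called. Among low-Y libraries these were 3753 (1932 and 1821) and 35 (13 and 22), and among high-Y libraries 1802 (869 and 933) and 19 (3 and 16), with fewer samples. At a threshold of 0.01, 13 list genes were called higher. Without Control libraries 5 and 6 the Abca3 over Npc2 ratio was not called (-0.31). Leaving out each library in turn, Abca3 over Sftpc ran from -0.17 to -0.058. Per kb of the longest transcript, Control levels became 118 for Abca3, 88.5 for Lpcat1, 786 for Npc2 and 95.0 for Atp8a1. Epcam had a log2 fold change of 0.051, and -0.0041 among low-Y libraries and -0.010 under the mesenchymal covariate, uncalled in each. Scaling by library size gave 3992 genes higher and 2095 lower, so that 65.6% of calls were higher, against 49.2% with TMM. Of 51 other called genes named, 37 were called under every alternative with 2 or more libraries in each group and 14 lost the call under some. The causes were not tested.

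With the replicate number as a block (Control library 6 has no partner), 6197 genes were called (3079 higher, 3118 lower), and the 6 genes had log2 fold changes of -2.88 (Lamp3), -2.31 (Slc34a2), -1.75 (Lpcat1), -1.45 (Abca3), -1.14 (Npc2) and -0.77 (Atp8a1). Deviations of same-numbered libraries correlated at -0.067 to 0.25 over 5 pairs, and 1 of 5 knockout libraries matched its own number best. Such correlations cannot decide whether the numbers pair the samples, and the labels name no litters or batches. DESeq2 called 5982 genes. Depth, at 3925 to 109924 counts per gene and group for the 6, did not limit their calls.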
